A study of Arabidopsis thaliana with 24 samples.

Results

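The 6 Arabidopsis thaliana genes AT5G10210, AT3G07350, AT2G48080, AT5G54170, AT1G49500 and AT3G28510 were among the 10 with the highest nitrate response in roots of the reference line Col-0, counted over probe sets that name 1 gene. They were chosen from these 10 and thus by that response, so their Col-0 values are given as a description without a test. The rest of the 10 were not taken into this set, and their responses are given below. Tests were restricted to contrasts between groups of the 3 mutant lines, while the spread behind them was estimated over all arrays, Col-0 included. Each of the 6 genes was measured by 1 probe set that names no other gene, out of 22714 probe sets tested and 13490 that name 1 gene. The reference used here gives no gene symbol and no function for any of the 6, so they are called by their locus identifiers.

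Nitrate is both a nutrient and a signal for roots. Within minutes of its arrival a set of genes is transcribed without new protein synthesis, the primary nitrate response, which includes genes of nitrate uptake, reduction and carbon supply. NIN-like proteins (NLPs) are transcription factors that bind nitrate-responsive promoters. NLP7 is a known master regulator of this response, retained in the nucleus when nitrate is present, and NLP6 is its closest relative.

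Roots of 4 genotypes were compared: the mutant carrying both lesions (nlp6nlp7), the single mutants nlp7 and nlp6, and Col-0. Seedlings of every genotype had been in 12.5 mM ammonium succinate for 9 days, with a final pretreatment at pH 5.5, and roots were taken 35 min after the supply of 25 mM KNO3 or at 0 min, before it. Each of the 8 groups held 3 biological replicates, each a pool of about 200 seedlings on 1 Affymetrix ATH1 array, so p-values measure the spread between pools. The kind of mutation in each line is not given in the labels. The design asks which part of the nitrate response needs NLP6, NLP7 or both. The study holds no roots given potassium without nitrate, and the passing of time, the handling and the potassium cannot be told apart from nitrate in any response. In root tissue a change in the share of cells with a transcript cannot be told apart from a change in RNA per cell.

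The deposited values are intensities in arbitrary units that the authors had scaled to a common mean on every array, and array medians lay between 163 and 196. Replicate arrays correlated at r = 0.979 to 0.992 over all probe sets. The pair of nlp7 arrays numbered replicate 1, at 35 min and at 0 min, stood apart from the other arrays on the third principal component, with scores of -37.26 and -34.83, and each result that rests on them was repeated without them. No named probe set exists here for NLP6 or NLP7. By label, 1 unnamed probe set was lower by at least 1 log2 unit in all 12 arrays of lines carrying nlp6 than in the other 12 arrays, and 1 other behaved in that way for lines carrying nlp7. Here and below, a listed gene counts as measured only if a probe set names that gene alone. Of the tested probe sets 8721 name no gene and 503 name several, so genes not counted may still lie among them. Of 13 root markers 3 were measured (the expansins EXPA7 and EXPA18 and the root beta-glucosidase gene PYK10), with summed intensities of 19687 to 28299, nearly all of it PYK10. The 3 of 10 photosynthesis markers measured (LHCB4.1, RCA and PRK) summed to 289 to 620, and at 35 min their sums were 289 to 387 in nlp6nlp7, 469 to 565 in nlp7, 302 to 531 in nlp6 and 416 to 441 in Col-0.

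AT5G10210 had intensities of 2014, 2309 and 2126 in nlp6nlp7 roots, 2123, 1486 and 2351 in nlp7 roots, 3868, 3366 and 2369 in nlp6 roots and 2850, 3708 and 2935 in Col-0 roots at 35 min. At 0 min they were 63, 62 and 44 in nlp6nlp7, 118, 55 and 49 in nlp7, 59, 39 and 23 in nlp6 and 42, 43 and 70 in Col-0. Every array at 35 min lay far above every array at 0 min, and at 35 min the ranges of nlp6nlp7 and nlp7 overlapped each other, just below the lowest nlp6 array and below all Col-0 arrays. On the scale of log2(intensity + 26), used for all responses below, the gene rose by 4.73 ± 0.25 (SE, 3 arrays against 3) in nlp6nlp7, a 26.5-fold change. It rose 20.7-fold in nlp7 and 48.9-fold in nlp6. With 103 added in place of 26 the log2 responses of AT5G10210 were 3.82 in nlp6nlp7, 3.56 in nlp7 and 4.51 in nlp6, and with 3 added that in nlp6 was 6.27 against 5.61. The Col-0 response that chose the gene was 41.3-fold. It had the second highest response of all probe sets in Col-0 and nlp6nlp7 and the third highest in nlp7 and nlp6.

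AT3G07350 showed the widest separation between genotypes among the 6 genes. Intensities at 35 min were 1793, 1630 and 1865 in nlp6nlp7, 1969, 1598 and 1572 in nlp7, 6270, 6423 and 6312 in nlp6 and 4398, 5342 and 5023 in Col-0. The arrays of both lines with the nlp7 lesion lay below all arrays of nlp6 and Col-0, and the nlp6 arrays lay above all Col-0 arrays. At 0 min the values were 99, 88 and 108 in nlp6nlp7, 176, 83 and 78 in nlp7, 151, 78 and 75 in nlp6 and 73, 129 and 121 in Col-0, with overlap between all genotypes. The gene rose 14.4-fold in nlp6nlp7, 13.1-fold in nlp7 and 51.7-fold in nlp6, beside 37.6-fold in Col-0. With 103 added the log2 responses of AT3G07350 were 3.21 in nlp6nlp7, 3.10 in nlp7 and 5.0 in nlp6, against 3.85, 3.71 and 5.69.

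AT2G48080 had the smallest spread between replicates. Its intensities at 35 min were 1905, 1925 and 2186 in nlp6nlp7, 3070, 2815 and 3245 in nlp7, 7396, 6656 and 6337 in nlp6 and 6085, 5820 and 6603 in Col-0. The nlp6nlp7 arrays were the lowest, the nlp7 arrays lay between them and the others, and nlp6 and Col-0 overlapped. At 0 min the values were 97, 102 and 110 in nlp6nlp7, 165, 163 and 164 in nlp7, 182, 194 and 200 in nlp6 and 186, 163 and 209 in Col-0. The nlp6nlp7 arrays were again below all others. The gene rose 15.7-fold in nlp6nlp7, 16.1-fold in nlp7 and 31.3-fold in nlp6, beside 29.3-fold in Col-0, with an SE of 0.09 log2 units for each response. With 103 added the response of AT2G48080 in nlp6nlp7 was 3.35, against 3.98.

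AT5G54170 had intensities at 35 min of 1535, 1774 and 1816 in nlp6nlp7, 2345, 1896 and 2461 in nlp7, 5517, 4332 and 3504 in nlp6 and 4540, 6120 and 4301 in Col-0. The 35 min arrays formed the order nlp6nlp7, nlp7 and then nlp6 and Col-0 together, with no overlap between these steps. At 0 min the values were 233, 205 and 205 in nlp6nlp7, 385, 209 and 265 in nlp7, 231, 204 and 245 in nlp6 and 243, 225 and 207 in Col-0. These overlapped, and the 385 was the array of nlp7 replicate 1. The gene rose 7.21-fold in nlp6nlp7, 7.39-fold in nlp7 and 17.5-fold in nlp6, beside 19.8-fold in Col-0.

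AT1G49500 had intensities at 35 min of 1167, 1317 and 1460 in nlp6nlp7, 1340, 1168 and 1413 in nlp7, 2158, 2161 and 3258 in nlp6 and 2254, 2353 and 2893 in Col-0. The nlp6nlp7 and nlp7 arrays covered the same range, below every nlp6 and Col-0 array. At 0 min the values were 134, 191 and 150 in nlp6nlp7, 213, 148 and 160 in nlp7, 158, 118 and 189 in nlp6 and 117, 119 and 141 in Col-0. All 3 nlp7 arrays were above the Col-0 arrays at that time, and the other genotypes overlapped. The gene rose 7.30-fold in nlp6nlp7, 6.72-fold in nlp7 and 14.0-fold in nlp6, beside 16.6-fold in Col-0.

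AT3G28510 departed from the other 5 in its order of genotypes. Its intensities at 35 min were 1140, 499 and 859 in nlp6nlp7, 413, 507 and 356 in nlp7, 693, 510 and 495 in nlp6 and 673, 907 and 597 in Col-0. The nlp6nlp7 mean was the highest of the 4, at 833 ± 321 (SD, n = 3), and nlp6nlp7 overlapped with every other genotype. At 0 min the values were 71, 35 and 42 in nlp6nlp7, 32, 19 and 25 in nlp7, 23, 2 and 28 in nlp6 and 72, 19 and 26 in Col-0, at or below the added constant of 26 in 6 of the 12 arrays. The gene rose 11-fold in nlp6nlp7, 8.76-fold in nlp7 and 13.9-fold in nlp6, beside 12.1-fold in Col-0, with an SE of 0.31 log2 units. At such low 0 min values the fold depends on the constant: with 3 in place of 26 the nlp6 response of AT3G28510 was 5.14 log2 units and with 103 it was 2.47, against 3.80. With 103 the response was 2.56 in nlp6nlp7 and 2.03 in nlp7, and with 3 it was 3.93 in nlp7, against 3.13.

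**Figure D1:**
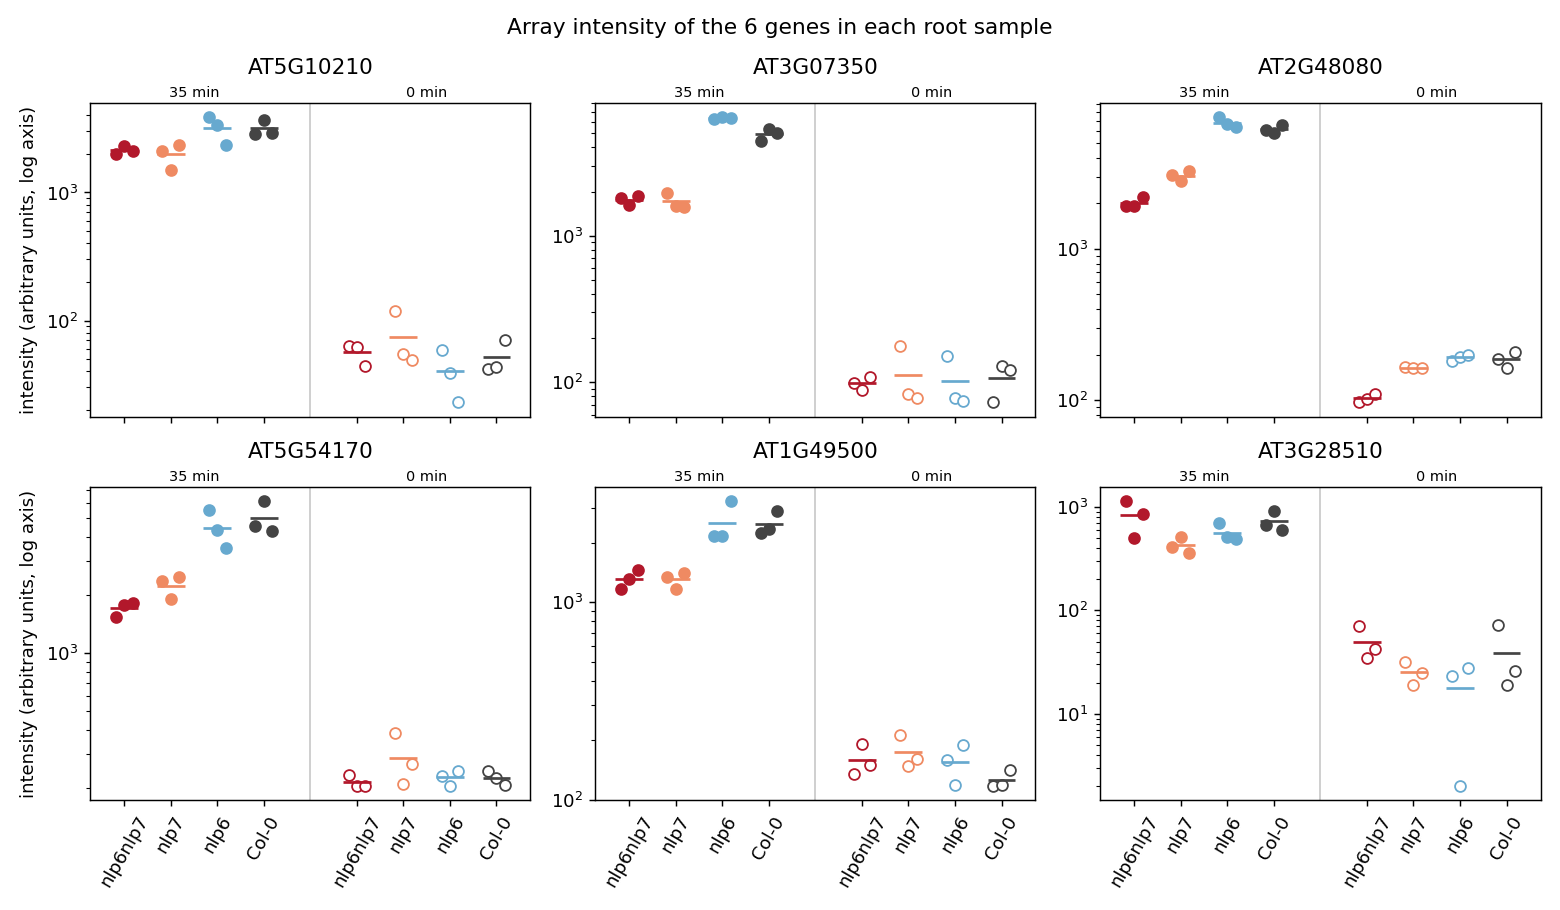
Intensity of each gene (arbitrary units, log axis) in all 24 root arrays, with 35 min on the left (filled) and 0 min on the right (open) of each panel, in the order nlp6nlp7, nlp7, nlp6 and Col-0. Points are arrays and lines are group means of 3 arrays. In each genotype the 35 min arrays lie above the 0 min arrays for all 6 genes, where the Col-0 rise chose the genes. For all but AT3G28510 every nlp6nlp7 and nlp7 array at 35 min lies below every nlp6 and Col-0 array, by a narrow gap in AT5G10210 (2351 in nlp7 against 2369 in nlp6). Over all probe sets, 5.61% had every nlp7 array below every nlp6 array at 35 min. Shares for the other separations were not computed, and the Col-0 arrays at 35 min entered the choice of the genes.

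All 6 genes rose after nitrate in each mutant (limma, Benjamini-Hochberg adjustment over the 22714 probe sets, adjusted p under 0.05). In nlp6nlp7 the adjusted p ran up to 1.62e-07 for AT3G28510, in nlp7 up to 7.2e-07 and in nlp6 up to 2.18e-08, for the same gene. Of all probe sets 2.41% rose in nlp6nlp7, 2.51% in nlp7 and 4.13% in nlp6, and 4.65% were higher in Col-0, where the response chose the genes. The median response of the 6 genes was 3.66 log2 units in nlp6nlp7, 3.42 in nlp7, 4.55 in nlp6 and 4.59 in Col-0. Medians over all probe sets were -0.05 in nlp6nlp7, -0.02 in nlp7, -0.08 in nlp6 and -0.04 in Col-0. In nlp6nlp7 the 6 genes ranked between 2 and 22 among the responses of all probe sets, in nlp7 between 3 and 20 and in nlp6 between 2 and 19. Without nlp7 replicate 1 at both times the nlp7 responses of the 6 genes were 4.60, 3.92, 4.01, 3.06, 2.87 and 3.24 log2 units in the order of the opening sentence, and all 6 remained past the threshold.

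**Figure D2:**
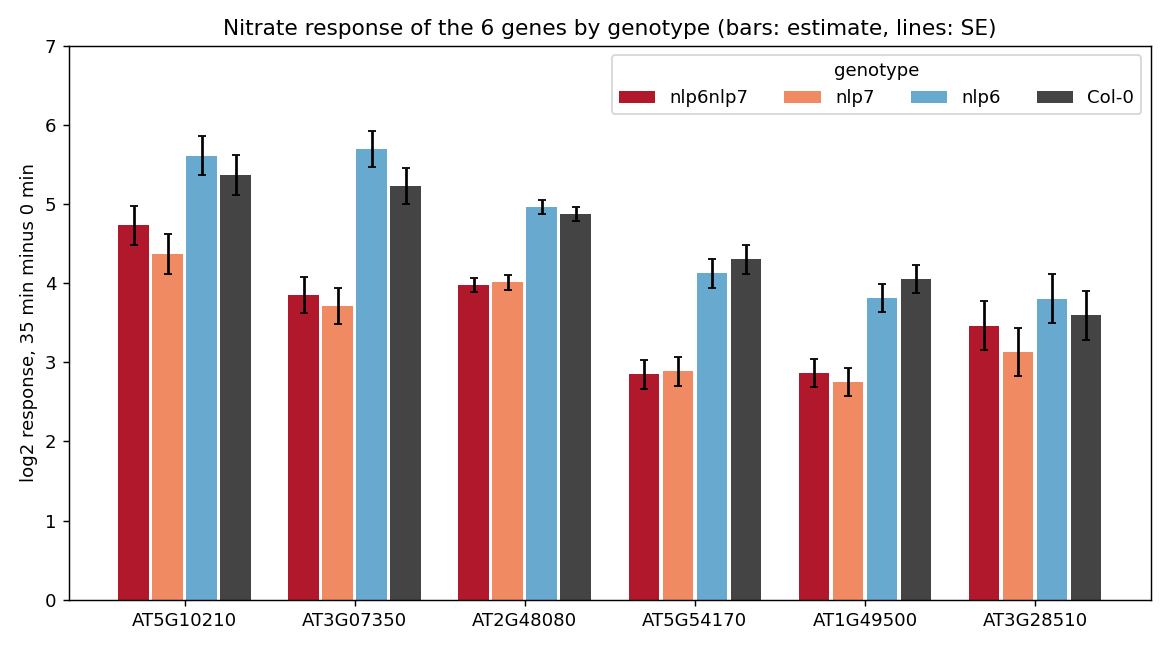
Response to nitrate of each gene as the difference of log2(intensity + 26) between 35 min and 0 min, with bars in the order nlp6nlp7, nlp7, nlp6 and Col-0 and lines for the SE of the limma estimate. Bars of nlp6nlp7 and nlp7 are shorter than those of nlp6 and Col-0 in AT5G10210, AT3G07350, AT2G48080, AT5G54170 and AT1G49500, while in AT3G28510 the 4 bars lie between 3.13 and 3.80.

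Responses were then compared between mutants, first between the single mutants and then between nlp6nlp7 and each of them. AT3G07350, AT2G48080 and AT5G54170 responded less in nlp7 than in nlp6, 3 of 6 genes where 0.225% of all probe sets did. AT3G07350 had a response of 3.71 log2 units in nlp7 and 5.69 in nlp6, a difference of -1.98 ± 0.32 (limma adjusted p = 0.0059), the fifth lowest of all 22714. For AT2G48080 the difference was -0.95 ± 0.13 (limma adjusted p = 0.00131). For AT5G54170 it was -1.24 ± 0.26 (limma adjusted p = 0.0455). This last call sat at the threshold: it was lost in 24 of 32 alternative settings, with adjusted p between 0.0154 and 0.391. It was lost without nlp7 replicate 1 at both times (difference -1.06, adjusted p = 0.13), where AT3G07350, at -1.77, and AT2G48080, at -0.96, still passed. Fitting the arrays of nlp7 and nlp6 alone kept the call of AT2G48080 and lost that of AT3G07350 (adjusted p = 0.168).

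The other 3 genes did not pass in that comparison. AT1G49500 differed by -1.06 (95% interval -1.58 to -0.54, limma adjusted p = 0.085) and AT5G10210 by -1.24 (interval -1.98 to -0.51, adjusted p = 0.227), both with intervals below 0. AT3G28510 differed by -0.67 with an interval of -1.59 to 0.24, which spans 0. These intervals are for single genes and are not adjusted over the array.

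The same 3 genes responded less in nlp6nlp7 than in nlp6, where 0.361% of all probe sets did; both comparisons share the nlp6 arrays. The difference was -1.85 ± 0.32 for AT3G07350 (limma adjusted p = 0.00688), the ninth lowest of all probe sets. It was -0.99 ± 0.13 for AT2G48080 (limma adjusted p = 0.000552) and -1.28 ± 0.26 for AT5G54170 (limma adjusted p = 0.0275). The call of AT5G54170 was lost in 12 of 32 settings, with adjusted p between 0.00691 and 0.0889. AT1G49500 differed by -0.94 (interval -1.46 to -0.42, limma adjusted p = 0.162), AT5G10210 by -0.88 (interval -1.61 to -0.15, adjusted p = 0.554) and AT3G28510 by -0.34 (interval -1.25 to 0.58, adjusted p = 0.938).

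Between nlp6nlp7 and nlp7 no response difference was detected for any of the 6 genes. In limma 0 of the 6 passed and 0 had an unadjusted p under 0.05. Over the whole array 0.0% passed as lower and 0 probe sets as higher, with 782 probe sets (3.44%) at an unadjusted p under 0.05. The 95% interval of nlp6nlp7 minus nlp7 was narrowest for AT2G48080, at -0.31 to 0.24 around a difference of -0.04. It was -0.54 to 0.80 for AT3G07350, -0.58 to 0.51 for AT5G54170 and -0.40 to 0.64 for AT1G49500. For AT5G10210, at -0.37 to 1.09, and AT3G28510, at -0.58 to 1.25, differences of up to about 1 log2 unit lie within the interval. The median difference over the 6 genes was 0.13, against -1.15 for nlp7 minus nlp6 and -0.97 for nlp6nlp7 minus nlp6. The same medians over all probe sets were -0.02, 0.04 and 0.02.

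**Figure D3:**
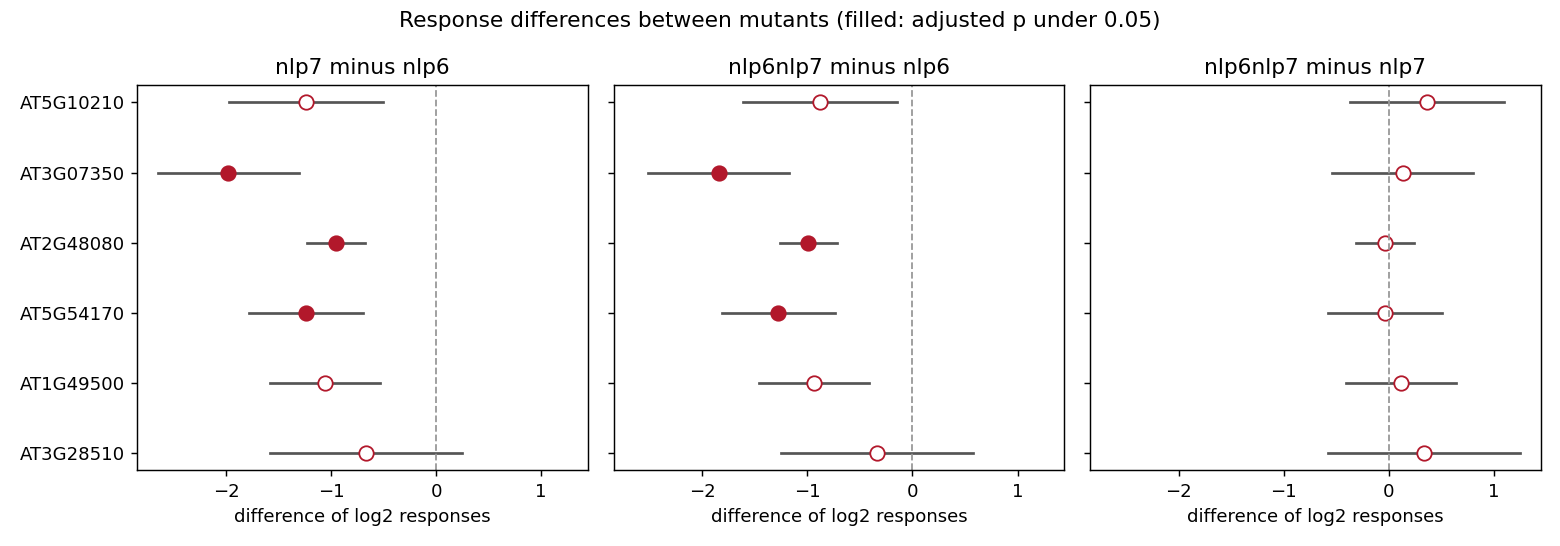
Difference of log2 responses between mutants for each gene, in 3 panels: nlp7 minus nlp6, nlp6nlp7 minus nlp6 and nlp6nlp7 minus nlp7. Points are limma estimates, lines are 95% intervals for single genes, and filled points passed an adjusted p of 0.05. AT3G07350, AT2G48080 and AT5G54170 are filled in the first and second panels, and no gene is filled in the third, where all intervals span 0.

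Set against Col-0, whose response chose the genes and therefore carries no test, the same order appeared. The response of nlp6nlp7 minus that of Col-0 was -0.64 for AT5G10210, -1.39 for AT3G07350, -0.90 for AT2G48080, -1.46 for AT5G54170, -1.18 for AT1G49500 and -0.13 for AT3G28510. For nlp7 minus Col-0 the same genes gave -1.0, -1.52, -0.86, -1.42, -1.30 and -0.47. For nlp6 minus Col-0 they gave 0.24, 0.46, 0.09, -0.18, -0.24 and 0.20, none as large as 2 SE. These 3 comparisons share the Col-0 arrays. Genes chosen for a high Col-0 response tend to be lower in any other group by that choice alone, so these sizes hold part of the choice itself.

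Levels before nitrate were compared between mutants for the basal state. AT2G48080 was lower in nlp6nlp7 than in both single mutants at 0 min and was the 1 gene of 6 to pass in each of these comparisons. It averaged 103 ± 6.56 in nlp6nlp7, 164 ± 1.0 in nlp7 and 192 ± 9.17 in nlp6 (SD, n = 3 each), beside 186 ± 23.0 in Col-0. Against nlp6 the difference was -0.76 ± 0.09 log2 units, 1.69-fold lower (limma adjusted p = 2.46e-05). There 676 of all 22714 probe sets (2.98%) were lower and 1207 higher. Against nlp7 the difference was -0.56 ± 0.09, 1.47-fold lower (limma adjusted p = 0.000693), where 364 probe sets (1.6%) were lower and 703 higher. Without nlp7 replicate 1 at both times the difference from nlp7 was -0.56 (adjusted p = 0.00466). With only the nlp6nlp7 and nlp7 arrays at 0 min in the fit it no longer passed (adjusted p = 0.0521). The nlp6nlp7 minus Col-0 difference was -0.71 ± 0.09, given without a test.

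No other basal difference passed. Between nlp7 and nlp6 at 0 min limma called 0 of the 6 genes, where 99 of all 22714 probe sets (0.436%) were lower and 190 higher. At an unadjusted p under 0.05 there were 2, where 14.5% of all probe sets were, AT5G10210 with a difference of 0.56 (adjusted p = 0.296) and AT2G48080 with -0.20 (adjusted p = 0.331). The nlp7 replicate 1 array held the highest 0 min value of its group for all 6 genes, and without it the AT5G10210 difference was 0.27. AT3G28510 was 0.81 ± 0.31 log2 units above nlp6 in nlp6nlp7 (limma adjusted p = 0.118). With nlp6 at 23, 2 and 28, this difference lies near the bottom of the scale.

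At 35 min, a comparison added after the data had been seen, AT3G07350, AT2G48080, AT5G54170 and AT1G49500 were lower in nlp7 than in nlp6, 4 of 6 genes where 0.911% of all probe sets were. The 3 nlp7 arrays all lay below the 3 nlp6 arrays in 5 of the 6, AT5G10210 included, and in 5.61% of all probe sets. AT3G07350 was 3.68-fold lower (limma adjusted p = 9.49e-05) and AT2G48080 2.22-fold lower (limma adjusted p = 5.31e-07). AT5G54170 was 1.96-fold lower and AT1G49500 1.88-fold lower (limma adjusted p = 0.00761 and 0.00963). The calls of AT5G54170 and AT1G49500 were both lost without nlp7 replicate 2 at 35 min (adjusted p = 0.0605 and 0.065), and that of AT1G49500 without nlp6 replicate 3 (0.0604). With only the nlp7 and nlp6 arrays at 35 min in the fit both were lost as well (adjusted p = 0.214 and 0.215). AT5G10210, at -0.68, and AT3G28510, at -0.39, did not pass (adjusted p = 0.235 and 0.687).

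The same 4 genes were lower in nlp6nlp7 than in nlp6 at 35 min, where 2.45% of all probe sets were. AT3G07350 was 3.56-fold lower, AT2G48080 3.36-fold, AT5G54170 2.54-fold and AT1G49500 1.88-fold (limma adjusted p = 2.2e-05, 1.25e-09, 6.03e-05 and 0.0026). With only the arrays compared in the fit, the call of AT1G49500 was lost (adjusted p = 0.0616). AT5G10210 differed by -0.54 (adjusted p = 0.259) and AT3G28510 by 0.48 (adjusted p = 0.484).

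AT2G48080 alone of the 6 was lower in nlp6nlp7 than in nlp7 at 35 min, where 1.2% of all probe sets were. Its difference was -0.60 ± 0.09 log2 units (limma adjusted p = 0.000393). At 0 min it was -0.56, and the responses of 3.98 in nlp6nlp7 and 4.01 in nlp7 differed by -0.04 with the interval given above. The photosynthesis marker sums were lower in nlp6nlp7 than in nlp7 at 35 min, without overlap. Of the root markers, EXPA18 averaged 800 ± 66.2 in nlp6nlp7 and 493 ± 96.7 in nlp7 (SD, n = 3 each). EXPA7 averaged 511.7 ± 14.15 and 535.0 ± 88.54, and PYK10 21410 ± 2372 and 19570 ± 756.1, in the same order. The part of these markers in the result was not tested. AT3G28510 was 0.87 ± 0.31 above nlp7 in nlp6nlp7 without passing (limma adjusted p = 0.16), with 2 of its 3 nlp6nlp7 arrays above the nlp7 range. AT5G54170 differed by -0.38 (adjusted p = 0.368), with array ranges that did not overlap.

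The 6 genes were close to each other in their pattern over the arrays. Pearson r of log2(intensity + 26) between pairs ranged from 0.908 to 0.990 over the 18 mutant arrays, with the lowest value for AT2G48080 and AT3G28510 and the highest for AT2G48080 and AT5G54170. These points fall into a low cluster at 0 min and a high cluster at 35 min, so r mostly reflects the step between the times. Likeness was ranked among probe sets that name 1 gene and over all 24 arrays, so it draws on the Col-0 values that chose the 6 genes, and PGM and WNK7 below are themselves among the 10 highest Col-0 responses. The gene most like AT5G10210 was PGM (AT1G78050), which encodes a phosphoglycerate/bisphosphoglycerate mutase (r = 0.995), followed by the WNK-family protein kinase gene WNK7 (0.990). PGM was also the closest to AT1G49500 (0.990). AT5G08010 was the closest to AT5G54170 (0.990), followed by AT2G48080 (0.989), and AT5G51830 was the closest to AT2G48080 (0.992). AT5G54170 was the closest to AT3G07350 (0.989). AT3G28510 had lower values throughout, with AT1G25550 the closest (0.980).

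The choice by Col-0 response has a boundary inside a continuous scale. The other 4 of the 10 highest named Col-0 responses were PGM at 5.21, AT1G80380 at 5.06, AT4G32950 at 4.42 and WNK7 at 3.66. AT3G28510 entered as the tenth at 3.60, and AT5G28610 stood just outside at 3.59. AT5G28610 had responses of 2.08 in nlp6nlp7, 2.50 in nlp7 and 4.46 in nlp6, and AT3G28510 had 3.47, 3.13 and 3.80 in the same order.

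Other genes listed for the primary nitrate response gave a background for the 6. Of 39 such loci 9 were measured in the sense given above, by a probe set that names the locus alone. Several of the 9 were known from these data to respond, and 4 of the 9 (PGM, AT1G80380, AT4G32950 and WNK7) are among the 10 highest Col-0 responses. In nlp6nlp7 8 of 9 rose, in nlp7 9 and in nlp6 9, where 2.41%, 2.51% and 4.13% of all probe sets rose, with median responses of 2.15, 2.47 and 3.17 log2 units. The exception was AT3G25790, with 0.34 in nlp6nlp7 (limma adjusted p = 0.538). PGM responded by 4.53 in nlp6nlp7, 4.30 in nlp7 and 5.40 in nlp6. AT1G80380 responded by 1.37 in nlp6nlp7, 2.47 in nlp7 and 4.89 in nlp6, and its difference of nlp6nlp7 minus nlp6 was -3.52 beside the -1.85 of AT3G07350. Compared with nlp6, 3 of the 9 responded less in nlp7 (PGM, AT1G80380 and WNK7) and 2 in nlp6nlp7 (AT3G25790 and AT1G80380), where 0.225% and 0.361% of all probe sets did. Between nlp6nlp7 and nlp7 limma called 0 of the 9, with 5 at an unadjusted p under 0.05, where 3.44% of all probe sets were. The differences of nlp6nlp7 minus nlp7 went in both directions among the 9, from -1.10 for AT1G80380 to 0.35 for AT1G68670.

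A list of 27 loci taken from prior knowledge as relatives of the 6 genes, whose likeness was not tested by sequence here, had 19 measured members and mostly small responses. In nlp6nlp7 2 rose and 2 fell, in nlp7 3 rose and 1 fell, and in nlp6 2 rose and 4 fell. Over all probe sets 2.41% rose and 3.0% fell in nlp6nlp7, 2.51% rose and 2.61% fell in nlp7, and 4.13% rose and 6.15% fell in nlp6. Medians were -0.11, -0.07 and -0.17. AT3G19030, listed beside AT1G49500, rose by 1.03 in nlp6nlp7 (limma adjusted p = 1.79e-05), 1.08 in nlp7 and 1.56 in nlp6. AT4G14500, listed beside AT5G54170, rose by 0.50 in nlp6nlp7, 0.43 in nlp7 and 0.77 in nlp6. AT3G22970, listed beside AT3G07350, fell by 0.64 in nlp6nlp7, 0.69 in nlp7 and 0.99 in nlp6.

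Genes next to the 6 on the chromosome were also set beside them. Of the 24 loci within 2 annotated genes on either side, 8 were measured, and limma called 0 of them in the response of nlp6nlp7, nlp7 or nlp6, with 2, 1 and 1 at an unadjusted p under 0.05, where 15.4%, 14.1% and 21.7% of all probe sets were. Their median responses were -0.11, -0.05 and -0.04. Of these neighbours AT3G28520 and AT1G49490 were dim as well, with median intensities of 14 and 23.5.

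**Figure D4:**
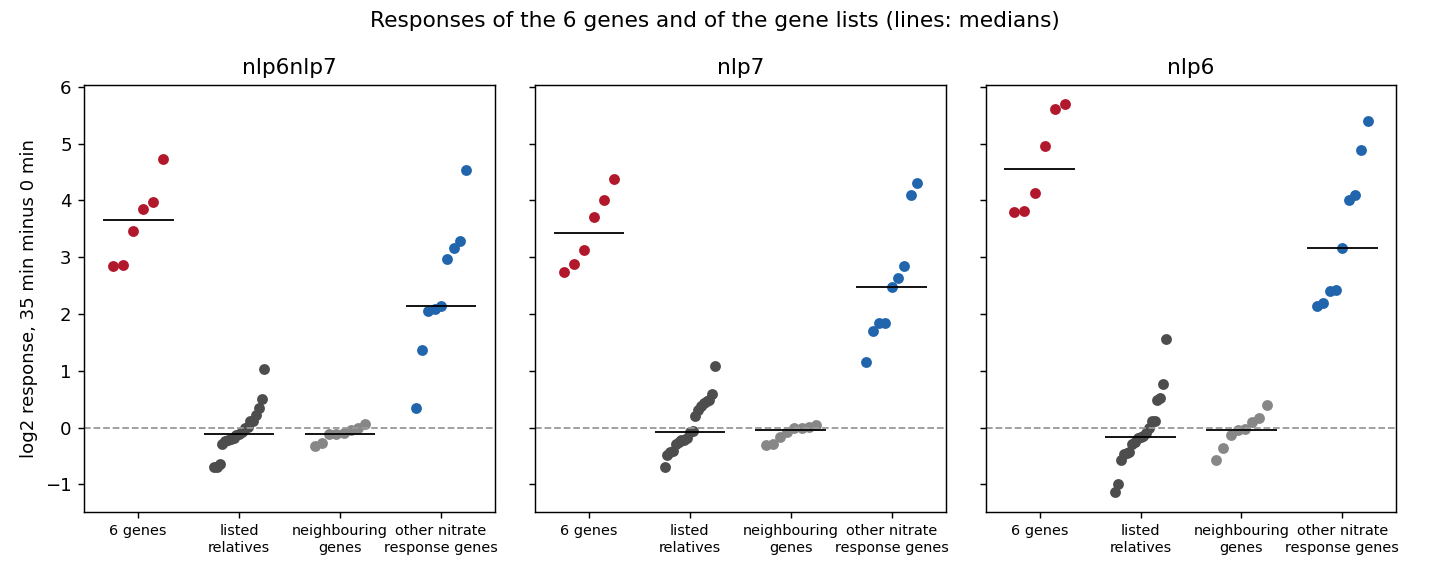
Response (log2, 35 min minus 0 min) in nlp6nlp7, nlp7 and nlp6 of the 6 genes, the 19 measured listed relatives, the 8 measured neighbouring genes and the 9 other measured genes of the primary nitrate response. Each point is 1 gene and lines are medians. The 6 genes lie between 2.75 and 5.69, the neighbours have medians near 0, and the other nitrate response genes reach from 0.34 to 5.40.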

How the data were processed

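Root RNA of 24 samples, 3 in each of 8 groups of genotype and time, was hybridised to Affymetrix ATH1 arrays, per the labels. The authors deposited 1 table of linear intensity values per probe set, whole numbers with a floor of 1, which at 1.08% to 3.54% of values per array limits dim genes. From the values, the mean trimmed by 2% at each end was near 500.1 to 500.5 on every array, so the authors had scaled them. For probe summarising, the software was not given in the sources used here. Arrays give no read depth, and their number limits the precision.

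Of 22776 probe sets, 62 controls were set apart and 22714 tested without a filter. Intensities were moved to log2(intensity + 26), 26 being the 20th percentile. A group-means model over all 24 arrays was fitted with limma 3.58.1 in R 4.3.3 (16 residual degrees of freedom, moderated variances, two-sided contrasts), with Benjamini-Hochberg adjustment over all tested probe sets and a threshold of 0.05. Its responses in nlp7 and nlp6 were checked on simulated data with independent noise, while its response differences and level contrasts were not. Fold changes are on that log2 scale and understate changes of dim genes. Gene names came from the array's probe annotation and TAIR10.1. The array table names no genome build, so no coordinates are given.

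The 6 genes and all lists were chosen with earlier results of these data known. Named besides them were the other genes of the 10 highest Col-0 responses and the next below, the 3 genes most like each by Pearson r, and members of the lists. Alternatives were a pseudocount of 3 (5th percentile) or 103 (40th percentile), quantile normalization, centring on array medians, leaving out the dimmest 25%, replicate number as a block, only the arrays compared, nlp7 without replicate 1, and each array left out in turn. Replicate numbers were not used as pairs in the main fit. In 0 of 28 pairs of groups did all 3 same-numbered deviations correlate above 0.1. Between 35 min and 0 min of the same genotype, r for replicates 1, 2 and 3 was 0.14, 0.20 and 0.087 in nlp6nlp7. It was 0.47, 0.067 and 0.34 in nlp7, -0.0084, 0.14 and 0.043 in nlp6 and 0.035, 0.066 and 0.12 in Col-0. Pairing within a genotype was not settled, and the block, which shares its numbers across genotypes, does not test it.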

Additional observations from a re-analysis of the deposited data

Results flagged for a closer look

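The nitrate responses of 3 of the 6 genes differed between mutants by a test of the difference itself. In nlp7 minus nlp6 the limma differences were -1.98 log2 units for AT3G07350, -0.95 for AT2G48080 and -1.24 for AT5G54170. In nlp6nlp7 minus nlp6 they were -1.85 for AT3G07350, -0.99 for AT2G48080 and -1.28 for AT5G54170. All 3 genes still rose in each mutant. The shared nlp6 arrays enter both comparisons. The call of AT5G54170 was lost in 24 of 32 settings in nlp7 minus nlp6 and in 12 of 32 in nlp6nlp7 minus nlp6. That of AT3G07350 in nlp7 minus nlp6 was lost with only the arrays compared (limma adjusted p = 0.168).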

How the results depend on the processing

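The values of the 6 genes were recomputed under 32 settings, 24 of them leaving out 1 array. Over 2304 values no call changed sign, 44 calls were lost, in 7 of 35 called values, and 2 were gained. All 6 genes rose in each mutant under every setting. Leaving out 1 array gave 2 to 3 genes called in nlp7 minus nlp6 and 2 to 3 in nlp6nlp7 minus nlp6 responses, and 0 in nlp6nlp7 minus nlp7. At 35 min it gave 2 to 4 in nlp7 minus nlp6. With only the arrays compared, 1 gene in place of 3 responded less in nlp7 than in nlp6, 0 in place of 1 differed at 0 min between nlp6nlp7 and nlp7, and 2 in place of 4 differed at 35 min between nlp7 and nlp6; this fit has fewer arrays behind the spread. With a pseudocount of 103, 2 genes in place of 1 differed at 35 min between nlp6nlp7 and nlp7, AT3G28510 being added (adjusted p = 0.0333), and the response of AT1G49500 in nlp7 minus nlp6 passed (adjusted p = 0.0301). The causes were not tested. With the replicate number as a block the counts of genes called in the response differences were 3, 3 and 0, as without it. That block does not test pairing within a genotype.

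Sign changes occurred in 16 values, none of them called. With a pseudocount of 103, nlp6nlp7 minus nlp6 gave 0.099 for the AT3G28510 response and -0.0025 for AT3G07350 at 0 min, and with 3 the AT2G48080 response in nlp6nlp7 minus nlp7 was 0.056. With quantile normalization and centring, nlp6nlp7 minus nlp7 gave 0.041 and 0.013 for the AT2G48080 response and 0.023 and 0.013 for AT5G54170. At 0 min nlp6nlp7 minus nlp6 gave -0.063 and -0.083 for AT3G07350 and -0.056 and -0.062 for AT1G49500. Without nlp7 replicate 1 at both times, nlp6nlp7 minus nlp7 gave -0.072 for the AT3G07350 response and, at 0 min, 0.071 for AT5G10210, 0.22 for AT3G07350 and 0.023 for AT1G49500, and nlp7 minus nlp6 gave -0.21 for AT3G07350. With 1 array left out, responses in nlp6nlp7 minus nlp7 ranged from -0.17 to 0.30 for AT3G07350, -0.10 to 0.011 for AT2G48080, -0.25 to 0.15 for AT5G54170 and -0.016 to 0.24 for AT1G49500. At 0 min nlp7 minus nlp6 ranged from -0.21 to 0.36 for AT3G07350, -0.0082 to 0.28 for AT1G49500 and -0.011 to 0.46 for AT3G28510, and nlp6nlp7 minus nlp6 from -0.13 to 0.28 for AT3G07350 and -0.12 to 0.17 for AT1G49500. At 0 min nlp6nlp7 minus nlp7 ranged from -0.40 to 0.071 for AT5G10210, -0.26 to 0.22 for AT3G07350 and -0.24 to 0.023 for AT1G49500, and at 35 min from -0.057 to 0.27, -0.011 to 0.15 and -0.070 to 0.088 for the same genes.

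Counts over all probe sets, which give the background shares, moved by over 1.5 times in several settings. With only the arrays compared, responses called fell to 408 against 1163 in nlp7 and 1230 against 2336 in nlp6, and response differences to 14 against 63 in nlp7 minus nlp6 and 58 against 102 in nlp6nlp7 minus nlp6. Levels called fell at 0 min to 1 against 289 in nlp7 minus nlp6, 827 against 1883 in nlp6nlp7 minus nlp6 and 241 against 1067 in nlp6nlp7 minus nlp7, and at 35 min to 19 against 325, 636 against 1428 and 386 against 835. With 1 array left out these levels ranged over 120 to 449, 1067 to 2090 and 671 to 1186 at 0 min and over 150 to 381, 868 to 1608 and 556 to 985 at 35 min, and the response difference of nlp7 minus nlp6 over 37 to 92. With a pseudocount of 103 that difference gave 132, and nlp6nlp7 minus nlp7 gave 2 against 0, with 1 under the block. Without nlp7 replicate 1 the 0 min count of nlp7 minus nlp6 was 153.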
